A study of Mus musculus with 12 samples.

Results

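The platelet-derived growth factor (PDGF) family was followed across glioblastoma cell cultures and neural stem cell (NSC) cultures of the mouse. It has 6 members here, the receptor genes Pdgfra and Pdgfrb and the ligand genes Pdgfa, Pdgfb, Pdgfc and Pdgfd. Members were chosen by name, as probe sets annotated with exactly 1 symbol, that of a member. Each had 1 such probe set, which makes 6 of the 21780 probe sets with 1 gene symbol that were tested.

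PDGF ligands act as dimers outside the cell, and binding joins 2 receptor chains whose kinase domains then phosphorylate each other and recruit signalling proteins. The alpha receptor binds A, B and C chains, and the beta receptor binds B and D chains. Dimers of the C and D chains are released as latent factors that a protease must cut. In the brain Pdgfra is known as the receptor of oligodendrocyte precursors, for which A chains are a mitogen, whereas Pdgfrb is known from pericytes, which B chains from endothelial cells recruit. A PDGF B chain delivered by a virus is also the driver of the tumours studied here.

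The comparison drawn in the study is between tumours begun in different brain cells. RNA of 12 cultures was measured, each on 1 Affymetrix array. Arf, a tumour suppressor made from the Cdkn2a locus, was deleted (Arf-/-) in the mice behind all cultures, NSC included. The same mice carried tv-a, the receptor through which an avian virus enters a cell. The tumours arose after injection of DF-1 cells, a chicken cell line, making the virus RCAS-PDGFB-HA into the adult brain. The group mGC1_GFAP holds 3 cultures from tumours of G/tv-a mice, mGC2_NES holds 3 from N/tv-a mice and mGC3_CNP holds 3 from C/tv-a mice, lines in which the Gfap, Nes or Cnp promoter is known to decide which cells carry tv-a. The group NSC holds 3 cultures from the subventricular zone of adult mice, 1 from each of these lines. None was treated, and the labels give the same medium for all, with insulin and B-27 and no PDGF named. The tumour cultures are called biological replicates in the labels, which do not name the animals, and the p-values refer to the variation among cultures.

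The values are log2 signals after RMA, a procedure that corrects background, gives all arrays a like distribution and summarises the probes of a probe set. Array medians lay between 7.60 and 7.66. As a measure of background, 4 genes of spermatids that brain cells should lack (Odf1, Prm2, Tnp1 and Tnp2) read 5.60 to 7.42. A gene with a mean at or below 7.42 was thus not shown to be present. Where only the lower mean of a difference lies there, the estimate is a lower bound with regard to background, given as "at least" or "or more". This wording does not cover sampling error, for which the SE or interval stands. Where both means lie there, that is said instead. The stem cell genes Sox2 (11.88 to 12.58 in tumour and 12.43 to 12.62 in NSC cultures) and Nes (9.59 to 11.05 in tumour and 12.15 to 12.38 in NSC cultures) were present in all 12. Cdkn2a read 8.20 to 9.35 in tumour and 7.79 to 7.96 in NSC cultures, and whether its probe set covers the deleted part was not tested. One NSC culture stood apart. The G/tv-a NSC culture had the X inactivation transcript Xist at 11.86 together with a mean of 8.39 over 3 genes of the Y chromosome (Uty, Kdm5d, Eif2s3y), a pair of signals that no other array showed. The members' differences from NSC and the counts of the gene lists are therefore also given without it. Among tumour cultures, all 3 of mGC3_CNP had Xist at 11.91 or more and Y-linked means of 4.96 or less. Both mGC1_GFAP and mGC2_NES also held cultures with Y-linked means of 8.57 or more and Xist at 5.62 or less. The part of sex in the differences between tumour groups was not tested.

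Against NSC cultures, 1 receptor and 2 ligands were higher in tumour cultures. Pdgfra was 13.9-fold higher, Pdgfd at least 3.23-fold higher and Pdgfb 1.99-fold higher, while Pdgfa, Pdgfc and Pdgfrb did not pass the test. Thus 3 of 6 members were called higher and 0 lower, where a call is an adjusted p under 0.05 in limma over all 21780 probe sets. Of all probe sets, 17.6% were called higher and 19.2% lower, 36.7% in all. The median difference of the members was 0.52, against 0.01 over all probe sets. In bulk cultures, fewer cells of a type and less RNA per cell cannot be told apart.

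**Figure D1:**
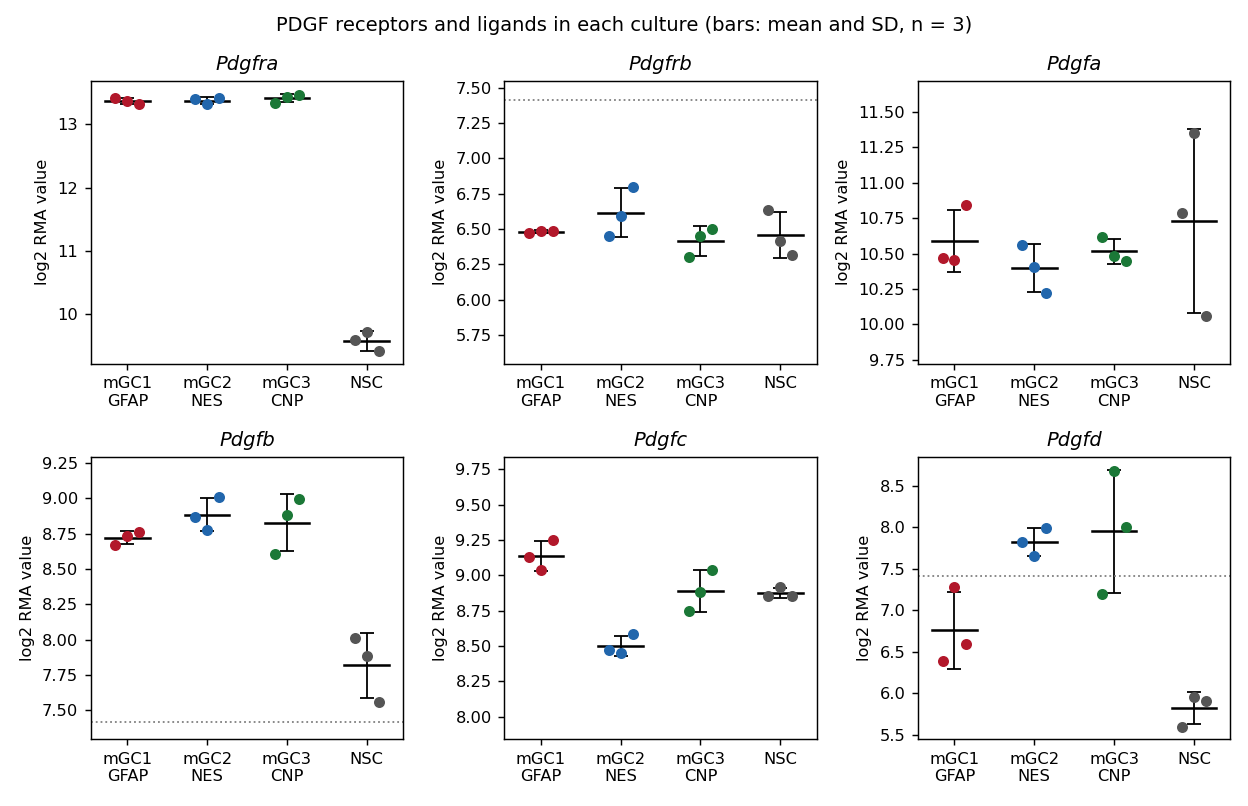
The log2 RMA value (vertical axis) of each PDGF receptor and ligand in the 12 cultures, 1 point per culture, grouped as mGC1_GFAP, mGC2_NES, mGC3_CNP and NSC. Lines and bars give the group mean and SD (n = 3), and the dotted line marks 7.42, the highest reading of genes taken as absent. The 9 tumour points of Pdgfra lie between 13.32 and 13.47 and the 3 NSC points between 9.42 and 9.73.

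Pdgfra encodes the alpha receptor. It read 13.41, 13.36 and 13.33 in mGC1_GFAP, 13.39, 13.32 and 13.41 in mGC2_NES, 13.34, 13.43 and 13.47 in mGC3_CNP, and 9.59, 9.73 and 9.42 in the C/tv-a, N/tv-a and G/tv-a NSC cultures. All tumour cultures were high, all NSC cultures were lower, and the groups did not overlap, as was so for 27.3% of all probe sets. The tumour mean was 13.38 ± 0.05 (SD, n = 9) and the NSC mean 9.58 ± 0.15 (SD, n = 3), a difference of 3.80 ± 0.06 (SE) with a limma adjusted p of 8.67e-12. Differences of that size or more were seen for 77 probe sets, 0.354% of all. Without the G/tv-a NSC culture the difference was 3.72 ± 0.06. The NSC level was itself well above 7.42, so the receptor transcript was present on both sides.

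Between tumours of the 3 promoter lines no difference of Pdgfra was called. It differed by -0.01 ± 0.06 between mGC1_GFAP and mGC2_NES (95% interval -0.15 to 0.14), by -0.05 ± 0.06 between mGC1_GFAP and mGC3_CNP (-0.19 to 0.10) and by -0.04 ± 0.06 between mGC2_NES and mGC3_CNP (-0.18 to 0.11). None of these passed in limma, with adjusted p-values of 0.971, 0.832 and 0.851. A small spread is common at such signal: the 126 probe sets with a tumour mean within 0.25 of that of Pdgfra had a median SD of 0.07 over the tumour arrays, and 25.4% of them had a smaller SD than Pdgfra.

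The promoter of Pdgfra is shown because it is the member that changed most. RefSeq places these 250 bases before an annotated start at chr5:75152001-75152250 of GRCm38.p6, plus strand, while its gene record begins upstream of them. Capitals mark the E-box (CANNTG, on both strands), the motif that bHLH factors such as those of the Olig family bind.
Pdgfra: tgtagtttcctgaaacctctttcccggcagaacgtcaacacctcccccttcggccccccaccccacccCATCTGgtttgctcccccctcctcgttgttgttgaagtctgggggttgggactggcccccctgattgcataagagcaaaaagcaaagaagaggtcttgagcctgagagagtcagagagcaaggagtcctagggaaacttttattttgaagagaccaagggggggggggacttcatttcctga
It holds 1 E-box, as 66.2% of 32851 RefSeq promoter windows of this length hold at least 1, and 0 matches to the SOX core ACAAT on either strand, which 27.7% hold.

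Genes beside Pdgfra moved in both directions. Of the 3 measured protein-coding genes on each side in RefSeq order, Kit, which encodes another class III receptor kinase, rose by 2.77 ± 0.16, and Lnx1, a ubiquitin ligase gene, rose by 2.35 ± 0.11. The homeobox gene Gsx2, next to Pdgfra on its other side, fell by 1.70 ± 0.07 or more, and Chic2 fell by 0.33 ± 0.07. Srd5a3 rose by 0.37 ± 0.09, and the VEGF receptor gene Kdr, with both means below 7.42, differed by 0.10 ± 0.14 (limma adjusted p = 0.637). Chromosome 5 as a whole had a median difference of -0.01 over 1295 probe sets. Of these 18% were called higher and 23.9% lower, against 17.6% and 19.2% of all probe sets. The part of the region in the Pdgfra difference was not tested.

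**Figure D2:**
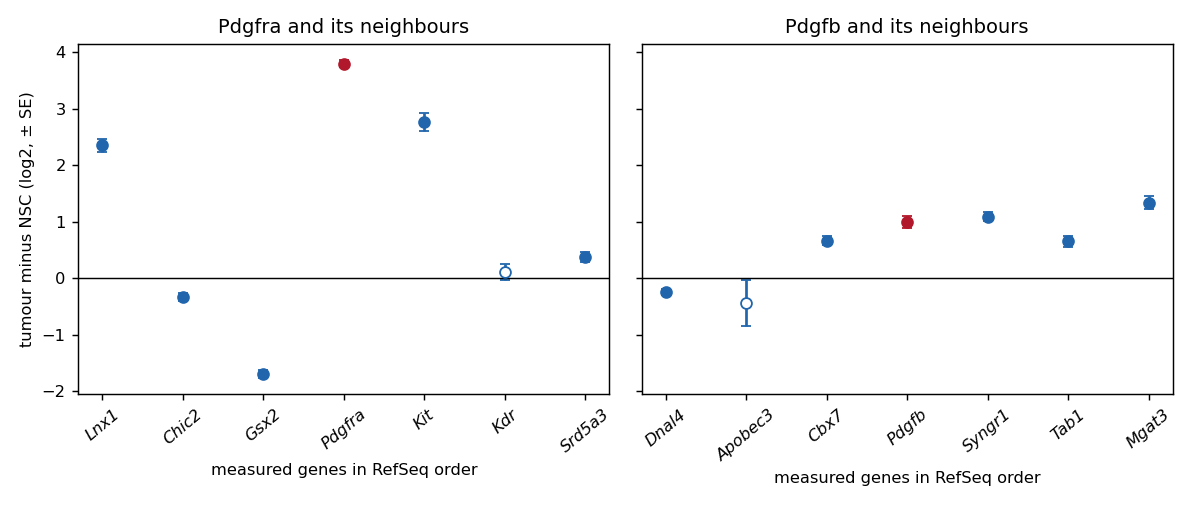
The difference of tumour minus NSC cultures (vertical axis, log2, with SE) for Pdgfra, Pdgfb and the 3 measured protein-coding genes on each side, in RefSeq order along the horizontal axis. Filled points passed limma at an adjusted p under 0.05. Around Pdgfra the neighbours run between -1.70 and 2.77, and around Pdgfb between -0.44 and 1.33.

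Pdgfrb, the beta receptor gene, lay at the level of genes taken as absent in every culture. It read 6.47, 6.49 and 6.49 in mGC1_GFAP, 6.45, 6.59 and 6.80 in mGC2_NES, 6.30, 6.45 and 6.50 in mGC3_CNP, and 6.63, 6.42 and 6.32 in the C/tv-a, N/tv-a and G/tv-a NSC cultures. All 12 values lay below 7.42 and the groups overlapped. The difference of tumour and NSC means was 0.05 ± 0.08, with a 95% interval of -0.14 to 0.23 and a limma adjusted p of 0.716. Without the G/tv-a NSC culture it was -0.02 (limma adjusted p = 0.906). Presence of Pdgfrb was not shown in any group, and it did not pass in any comparison.

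Pdgfa encodes the A chain, the ligand through which oligodendrocyte precursors are usually driven. It read 10.47, 10.46 and 10.84 in mGC1_GFAP, 10.56, 10.40 and 10.22 in mGC2_NES, 10.62, 10.48 and 10.44 in mGC3_CNP, and 10.79, 11.36 and 10.06 in the C/tv-a, N/tv-a and G/tv-a NSC cultures. The NSC cultures held both the highest and the lowest of the 12 values. Their SD was 0.65, against 0.22, 0.17 and 0.09 in mGC1_GFAP, mGC2_NES and mGC3_CNP. The tumour mean differed from the NSC mean by -0.23 ± 0.20 (95% interval -0.68 to 0.22, limma adjusted p = 0.432). Without the G/tv-a NSC culture, the lowest value, Pdgfa fell by 0.57 ± 0.15 and passed (limma adjusted p = 0.0126). Without the N/tv-a NSC culture, the highest value, the difference was 0.078 ± 0.17 (limma adjusted p = 0.793). The result for Pdgfa thus rested on which NSC cultures were included. Between tumour groups its largest difference was 0.19 ± 0.12, mGC1_GFAP over mGC2_NES (limma adjusted p = 0.441).

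Pdgfb encodes the B chain, the factor carried by the tumour-inducing virus. It read 8.67, 8.73 and 8.76 in mGC1_GFAP, 8.87, 8.77 and 9.01 in mGC2_NES, 8.61, 8.88 and 8.998 in mGC3_CNP, and 8.01, 7.88 and 7.56 in the C/tv-a, N/tv-a and G/tv-a NSC cultures. Every tumour culture lay above every NSC culture. Tumour and NSC arrays did not overlap for 27.3% of all probe sets. Means were 8.81 ± 0.14 in tumour (SD, n = 9) and 7.82 ± 0.23 in NSC cultures (SD, n = 3), a difference of 0.99 ± 0.10 with a limma adjusted p of 1.36e-05. It was 0.87 ± 0.10 without the G/tv-a NSC culture. In each line the tumour mean lay above the NSC culture of that line, by 1.16 in G/tv-a, 1.00 in N/tv-a and 0.82 in C/tv-a.

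The labels do not say from which species the PDGFB of the virus was taken, and probe positions were not used here. Signal of the mouse gene and of the viral insert cannot be told apart in this probe set. Pdgfb also lies on chromosome 15, where 37.2% of 831 probe sets were called higher, against 17.6% of all probe sets, and the median difference was 0.11. Of its 6 measured neighbours 4 rose, Cbx7 (0.67 ± 0.08), Syngr1 (1.09 ± 0.09), Tab1 (0.65 ± 0.10) and Mgat3 (1.33 ± 0.12), while Dnal4 fell by 0.24 ± 0.05 and Apobec3 (-0.44 ± 0.41) did not pass. The part of the chromosome in the Pdgfb difference was not tested. Among tumour groups Pdgfb differed by at most 0.16 in size, between mGC1_GFAP and mGC2_NES (-0.16 ± 0.10, limma adjusted p = 0.446), although the arrays of these groups did not overlap, as was so for 26.5% of all probe sets.

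Pdgfc encodes the C chain. It read 9.13, 9.04 and 9.25 in mGC1_GFAP, 8.47, 8.45 and 8.58 in mGC2_NES, 8.75, 8.88 and 9.04 in mGC3_CNP, and 8.85, 8.92 and 8.86 in the C/tv-a, N/tv-a and G/tv-a NSC cultures. All mGC2_NES cultures lay below all others. Arrays of mGC2_NES did not overlap with those of mGC1_GFAP, mGC3_CNP and NSC for 26.5%, 18.2% and 46.0% of all probe sets. The mean was highest in mGC1_GFAP, whose values overlapped with those of mGC3_CNP, and mGC3_CNP and NSC had means of 8.89 ± 0.15 and 8.88 ± 0.04 (SD, n = 3 each). It was the member with a called difference between tumour groups. Pdgfc was higher by 0.64 ± 0.09 in mGC1_GFAP, at 9.14 ± 0.10, than in mGC2_NES, at 8.50 ± 0.07 (SD, n = 3 each), 1.55-fold with a limma adjusted p of 0.00725. The moderated F test over the 3 tumour groups gave Pdgfc an adjusted p of 0.0184 in limma, and called 4.05% of all probe sets.

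The other steps of the Pdgfc order were smaller. Between mGC2_NES and mGC3_CNP it differed by -0.39 ± 0.09 (limma adjusted p = 0.118), with no overlap of arrays, as for 18.2% of all probe sets. Between mGC1_GFAP and mGC3_CNP it differed by 0.25 ± 0.09 (limma adjusted p = 0.293). Set against NSC, Pdgfc rose by 0.26 ± 0.08 in mGC1_GFAP (limma adjusted p = 0.036) and fell by 0.37 ± 0.08 in mGC2_NES (limma adjusted p = 0.00464). In mGC3_CNP it differed by 0.01 ± 0.08 (limma adjusted p = 0.934). These 3 comparisons share the NSC arrays. Over all tumour cultures the difference was -0.03 ± 0.07 (limma adjusted p = 0.772), and -0.04 without the G/tv-a NSC culture (limma adjusted p = 0.767). The rise in mGC1_GFAP no longer passed without mGC1_GFAP replicate 1 or 3 or without any 1 of the 3 NSC cultures (limma adjusted p 0.0579 to 0.135).

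Pdgfd encodes the D chain, a ligand of the beta receptor. It read 6.39, 7.28 and 6.59 in mGC1_GFAP, 7.82, 7.66 and 7.99 in mGC2_NES, 7.19, 8.67 and 7.998 in mGC3_CNP, and 5.60, 5.96 and 5.90 in the C/tv-a, N/tv-a and G/tv-a NSC cultures. NSC cultures were lowest and overlapped with none of mGC1_GFAP, mGC2_NES and mGC3_CNP, as was so for 43.3%, 46.0% and 42.4% of all probe sets. All 3 mGC1_GFAP cultures and mGC3_CNP replicate 1 lay below 7.42, and the remaining 5 tumour cultures above it. The probe set itself read as low as 5.60, so the background of other genes is a cautious limit for it.

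Averaged over tumour groups, Pdgfd rose by 1.69 ± 0.26 or more against NSC (limma adjusted p = 2.99e-04), at 7.51 ± 0.72 in tumour (SD, n = 9) and 5.82 ± 0.19 in NSC cultures (SD, n = 3). Without the G/tv-a NSC culture the difference was 1.73 ± 0.32. By group it was at least 0.94 ± 0.32 in mGC1_GFAP (limma adjusted p = 0.0457), at least 2.01 ± 0.32 in mGC2_NES (4.56e-04) and at least 2.14 ± 0.32 in mGC3_CNP (3.54e-04). The call in mGC1_GFAP was near the threshold. It was lost without mGC1_GFAP replicate 2, at 0.68 (limma adjusted p = 0.174), without any 1 of 8 other cultures, and under 3 other settings.

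Pdgfd was also the member that varied most among tumours. Its tumour values spanned 2.28, and 97.9% of the 1374 probe sets of similar tumour mean had a smaller SD. The mGC1_GFAP mean of 6.76 ± 0.47 lay below the means of 7.82 ± 0.17 in mGC2_NES and 7.95 ± 0.74 in mGC3_CNP (SD, n = 3 each). Neither step passed: the difference was -1.07 ± 0.34 for mGC1_GFAP against mGC2_NES (limma adjusted p = 0.11, unadjusted 0.0125) and -1.20 ± 0.34 against mGC3_CNP (limma adjusted p = 0.18, unadjusted 0.00677). As the mGC1_GFAP mean lay below 7.42, both sizes are lower bounds. Without mGC3_CNP replicate 1, the low culture of its group, the difference between mGC1_GFAP and mGC2_NES passed at -1.07 ± 0.25 (limma adjusted p = 0.0394). Between mGC2_NES and mGC3_CNP Pdgfd differed by -0.13 ± 0.34 (95% interval -0.91 to 0.65).

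**Figure D3:**
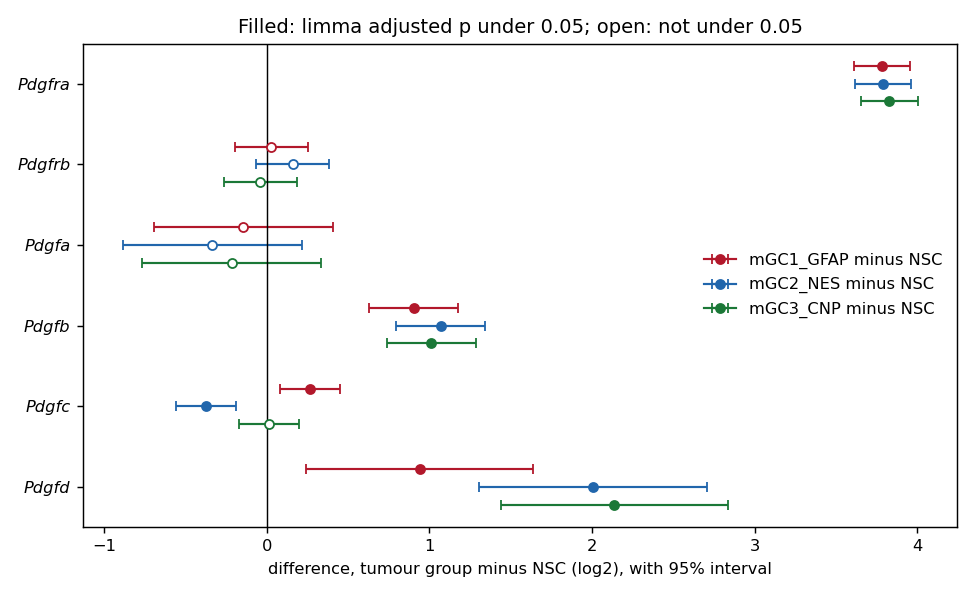
The difference of each tumour group minus NSC (horizontal axis, log2) for each receptor and ligand gene, with the 95% interval from limma, 3 cultures per group. Filled points passed at an adjusted p under 0.05. Pdgfra lies between 3.78 and 3.83 in all tumour groups, Pdgfb between 0.90 and 1.07, Pdgfd between 0.94 and 2.14, and Pdgfc on both sides of 0.

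Counted by group against NSC, 4 of 6 members were higher and 0 lower in mGC1_GFAP, 3 higher and 1 lower in mGC2_NES, and 3 higher and 0 lower in mGC3_CNP. Over all probe sets 29.3% were called in mGC1_GFAP (13.9% higher, 15.3% lower), 34.9% in mGC2_NES (16.6% higher, 18.2% lower) and 30.3% in mGC3_CNP (14.9% higher, 15.5% lower). Between tumour groups 1 of 6 members was called for mGC1_GFAP against mGC2_NES, where 6.13% of all probe sets were (3.12% higher, 3.02% lower). None was called for mGC1_GFAP against mGC3_CNP or mGC2_NES against mGC3_CNP by limma, where 0.487% and 0.459% of all were. At an unadjusted p under 0.05 these were 2 members, Pdgfc and Pdgfd, and 1 member, Pdgfc. That threshold was also met by 2816 and 2900 of the 21780 probe sets in these comparisons. In all, 18 differences between tumour groups were compared.

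Proteins that ready the ligands were measured as a list of 7 protease genes. Of these, 2 rose, 3 fell and 2 did not pass, rose and fell meaning called by limma in tumour against NSC cultures, as 17.6% and 19.2% of all probe sets were. Plat, tissue plasminogen activator, which is known to activate the C chain dimer, fell by 1.96 ± 0.15, at 9.99 ± 0.25 in tumour (SD, n = 9) and 11.94 ± 0.17 in NSC cultures (SD, n = 3). Plau, urokinase, known to activate the D chain dimer, fell by 0.71 ± 0.07, but both means lay below 7.42. Among proprotein convertases, which cut the A and B chain precursors, Pcsk6 rose by 1.31 ± 0.11 and Pcsk7 by 0.32 ± 0.05, while Furin fell by 0.33 ± 0.11, with overlap of arrays, and Pcsk5 (0.16 ± 0.09) did not pass. The list median was 0.04, and that of all probe sets 0.01.

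The receptor docking list held 25 genes for proteins that bind the activated receptors or join those that do. In it 4 rose, 7 fell and 14 did not pass, with a median of -0.06, while 17.6% of all probe sets rose and 19.2% fell. Those that rose were the PI3-kinase catalytic subunit gene Pik3cb (1.33 ± 0.11), the regulatory subunit gene Pik3r1 (0.68 ± 0.07), the adaptor Gab1 (0.85 ± 0.13), and Stat5b (0.44 ± 0.11), a transcription factor. The scaffold gene Slc9a3r1 fell by 1.56 ± 0.13, the Src family kinase gene Yes1 by 1.01 ± 0.23, and the adaptor genes Shb and Nck2 by 0.92 ± 0.13 and 0.62 ± 0.08.

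In the kinase relay below the receptors, 11 of 18 listed genes had a probe set with 1 symbol, and the other 7 were not analysed here. Of the 11, 3 rose, 4 fell and 4 did not pass, with a median of -0.09. Prkca, a protein kinase C gene, rose by 0.98 ± 0.09, Braf by 0.27 ± 0.09 and Pdpk1 by 0.22 ± 0.07. Nras fell by 0.66 ± 0.15, Araf by 0.35 ± 0.08, Akt1 by 0.23 ± 0.05 and Akt2 by 0.15 ± 0.05. Without the N/tv-a or without the G/tv-a NSC culture 1 gene rose.

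Among brakes and coreceptors of PDGF signalling some genes rose and others fell, as did 17.6% and 19.2% of all probe sets. Of 11 measured genes 3 rose, 4 fell and 4 did not pass, with a median of -0.07. Cblb, a ubiquitin ligase that ends receptor signalling, fell by 1.48 ± 0.10, and Ptpn1, a phosphatase, by 0.29 ± 0.06. The coreceptor gene Nrp1 fell by 2.44 ± 0.19 or more. The receptor phosphatase Ptprj rose by 0.80 ± 0.09, the endocytic receptor Lrp1 by 0.73 ± 0.14 and the Ras inhibitor Nf1 by 0.58 ± 0.10.

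Relatives of the family parted most in the Kit pair. The receptor gene Kit rose by 2.77 ± 0.16, at 10.64 ± 0.14 in tumour (SD, n = 9) and 7.87 ± 0.48 in NSC cultures (SD, n = 3). Its ligand gene Kitl fell by 2.73 ± 0.16, at 7.93 ± 0.46 in tumour and 10.66 ± 0.10 in NSC cultures. Of 15 relatives 3 rose, 4 fell and 8 did not pass, with a median of -0.01. Vegfa, the vascular growth factor, rose by 0.94 ± 0.21, and Flt3l, ligand of the Flt3 receptor, by 0.39 ± 0.06 or more. The ligand gene Csf1 fell by 1.11 ± 0.11, Il34 by 0.44 ± 0.11 or more, and Vegfc by 0.78 ± 0.11 with both means below 7.42.

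Of the genes known from fibroblasts to answer PDGF quickly some rose and others fell, as did 17.6% and 19.2% of all probe sets. Of 19 measured genes 6 rose, 5 fell and 8 did not pass, with a median of 0.09. The transcription factor genes Egr2 (1.83 ± 0.15), Fos (1.52 ± 0.18), Myc (0.60 ± 0.07) and Egr1 (0.51 ± 0.08) rose. The AP-1 subunit gene Fosl1 fell by 1.91 ± 0.24 or more, the chemokine gene Ccl2 fell by 1.70 ± 0.11 or more, the urokinase receptor gene Plaur fell by 1.65 ± 0.28 or more and Btg2 by 1.33 ± 0.18.

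**Figure D4:**
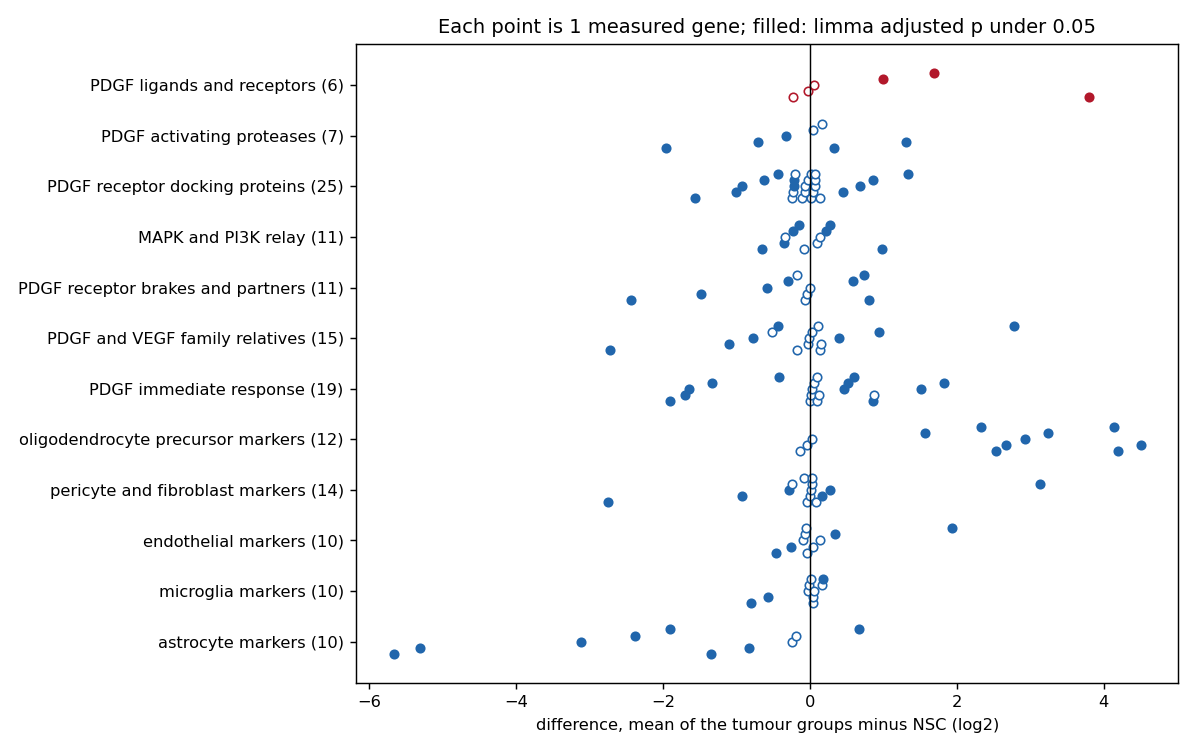
The difference of the mean of the tumour groups minus NSC (horizontal axis, log2) for each measured gene of the PDGF family, its pathway lists and the cell type marker lists, with the number of genes in brackets. Filled points passed limma at an adjusted p under 0.05, and the vertical offset within a row has no meaning. In the oligodendrocyte precursor row 9 of 12 genes lie to the right at 1.57 or more, and in the astrocyte row 7 of 10 are filled on the left.

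Markers of the cells in which each member is known were measured beside it. The counts of each marker list below stand beside 17.6% of all probe sets that rose and 19.2% that fell. Of 12 oligodendrocyte precursor markers, 9 rose, 0 fell and 3 did not pass, with a median of 2.59. Their summed linear signal was 58619 to 65154 in tumour and 25148 to 26272 in NSC cultures. Sox10, a transcription factor of the lineage, rose by 4.51 ± 0.05, the receptor gene Gpr17 by 4.19 ± 0.19, the secreted factor gene C1ql1 by 4.14 ± 0.15 and the sialidase gene Neu4 by 3.24 ± 0.18 or more. Olig2 and Olig1, also of that lineage, did not pass, at 12.31 in tumour and 12.44 in NSC cultures for Olig2 and 12.94 and 12.98 for Olig1. Ptprz1 did not pass either, at 12.66 in tumour and 12.63 in NSC cultures. The summed signal of NSC cultures rested mostly on Olig1, Olig2 and Ptprz1. The part of these markers' cells in the Pdgfra difference was not tested.

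Pericyte and fibroblast markers, whose cells are known for Pdgfrb, summed to 2057.5 to 2846.4 in tumour and 2362.1 to 3039.4 in NSC cultures. Of 14, 3 rose, 3 fell and 8 did not pass, with a median of 0.01, and 11 had a tumour mean and 10 an NSC mean at or below 7.42. The transcription factor gene Tbx18 rose by 3.13 ± 0.17 or more and the actin gene Acta2 fell by 2.76 ± 0.29 or more. Notch3 fell by 0.93 ± 0.17 or more. Rgs5 (-0.29 ± 0.07) and Dcn (0.16 ± 0.05) passed with both means below 7.42.

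Endothelial markers, whose cells are known for Pdgfb, summed to 1461.2 to 2067.8 in tumour and 1077.6 to 1099.5 in NSC cultures. Of 10, 2 rose, 2 fell and 6 did not pass, with a median of -0.05, and 9 lay at or below 7.42 on both sides, the junction genes Cdh5, Cldn5 and Pecam1 among them. The remaining marker was Ramp2, a receptor-associated membrane protein gene, which rose by 1.94 ± 0.16, at 9.84 in tumour and 7.90 in NSC cultures, so the higher sum rested on it. Pecam1 (0.33 ± 0.08), Emcn (-0.47 ± 0.08) and Slco1c1 (-0.27 ± 0.06) passed with both means below 7.42. Of 10 microglia markers 1 rose, 2 fell and 7 did not pass, with a median of 0.02. The gene that rose did not pass without the G/tv-a NSC culture, and P2ry12 fell by 0.81 ± 0.14 with both means below 7.42. The summed level of microglia markers was 1067.8 to 1216.5 in tumour and 1208.2 to 1361.2 in NSC cultures.

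Of 10 astrocyte markers 1 rose, 7 fell and 2 did not pass, with a median of -1.63 and summed levels of 17254 to 20228 in tumour and 24179 to 33125 in NSC cultures. The tumour sum rested mostly on Aldoc, the marker that rose, at 13.40 in tumour and 12.73 in NSC cultures. The folate enzyme gene Aldh1l1 fell by 5.67 ± 0.08 or more, the gap junction gene Gja1 fell by 5.31 ± 0.06 or more, the glutamate transporter gene Slc1a3 by 3.12 ± 0.56 and the water channel gene Aqp4 fell by 2.38 ± 0.08 or more. Without the G/tv-a NSC culture the counts of all 11 lists stayed as given but for docking genes that fell (5), relay genes that rose (1) or fell (3), and pericyte (2) and microglia (0) markers that rose. Between tumour groups few list genes were called by limma, as few of all probe sets were. None was called for mGC1_GFAP or mGC2_NES against mGC3_CNP, where 0.487% and 0.459% of all probe sets were. For mGC1_GFAP against mGC2_NES 6.13% of all were called. There the exchange factor gene Sos1 (0.54) and the ubiquitin ligase gene Cbl (0.33) were higher in mGC1_GFAP. Map2k1 (-0.52), Dusp1 (-0.59), Lhfpl3 (-0.33) and Foxc1 (-0.79, a lower bound in size) were lower.

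Genes with profiles most like each member were found by Pearson correlation over the 12 arrays. As tumour and NSC arrays form separate clusters, the points of members that differ between them share that split, and r is given as a description. For Pdgfra they were Sox10 (r = 0.999), the matrix protease gene Mmp16 (r = 0.997) and the glutamate receptor gene Gria4 (r = 0.997). For Pdgfb they were Palm (r = 0.977), the laminin gene Lama4 (r = 0.976) and Foxred2 (r = 0.975). For Pdgfd they were Rhpn1 (r = 0.966), Icam5 (r = 0.964) and Rab2a (r = 0.959).

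For the members not called over all tumour cultures against NSC the highest correlations were lower. Pdgfc was followed by Add2 (r = 0.938), Dock11 (r = 0.931) and Septin6 (r = 0.914). Add2 had means of 9.41 in mGC1_GFAP, 8.30 in mGC2_NES, 8.99 in mGC3_CNP and 8.94 in NSC cultures, the order seen for Pdgfc. Pdgfa was followed by Sgms2 (r = 0.890), Eif5b (r = 0.877) and Sergef (r = 0.872), of which Sgms2 had tumour and NSC means below 7.42. Pdgfrb was followed by Hoxa10 (r = 0.867), Ccdc192 (r = 0.836) and Ptgdr2 (r = 0.828), whose tumour and NSC means also lay below 7.42. Pdgfd, whose tumour arrays spanned more than 1, was most like Faah (r = 0.983), Cpz (r = 0.961) and Pfkm (r = 0.946) over the 9 tumour arrays alone. The tumour and NSC means of Cpz lay below 7.42 as well.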

How the data were processed

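Per the submitters' processing notes, the authors made the deposited log2 values with RMA in Affymetrix Expression Console, with no version stated. The table held 28270 probe sets in 12 columns, with 0 columns left unmapped. The 21780 probe sets with exactly 1 symbol in the platform annotation (19934 symbols) were tested as deposited, 1617 with several and 4873 not listed were not, and 21689 gene identifiers matched RefSeq of GRCm38.p6. Values were fitted in R 4.3.3 with limma 3.58.1 (lmFit, eBayes, two-sided, Benjamini-Hochberg over all tested probe sets, called under 0.05). Tumour against NSC used all 12 arrays, taking the average of the 3 tumour groups less NSC, and tumour groups were compared on their 9 arrays. Arrays hold no read depth, and their number limits the precision. No 2 arrays were identical.

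On simulated data with 200 changed probe sets, 99 of 100 changes of 1 and 100 of 100 of 2 (log2) were recovered for tumour against NSC, and 93 and 97 of 100 for mGC1_GFAP against mGC2_NES. The simulated noise was independent and normal, and the data had more called probe sets, 8004 and 1336. Changes below 1 were not simulated, and recovery of a given member was not tested. The members and 11 lists (144 of 152 genes measured, 1 through an older symbol) were chosen with earlier results of these data known. From each list up to 4 called genes each way without overlap of arrays were named by size, besides 3 neighbours on each side of Pdgfra and Pdgfb and the 3 most correlated genes per member. Predicted genes were passed over. Olig1, Olig2, Ptprz1, Aldoc, Furin, Pcsk5, the junction genes, the list genes called between tumour groups and the Sox2, Nes and Cdkn2a checks were named outside this rule, after their values were seen. Promoter sequences came from RefSeq (GRCm38.p6), whose table matched 4 of 6 members.

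Alternatives were leaving out each array, median centring, a trended robust prior, a filter on low values, all probe sets, replicate number or mouse line as a block, array weights and the 12-array fit for tumour groups. Deviations from group means of same-numbered cultures correlated at 0.13 to 0.25 between mGC2_NES and mGC3_CNP, and at 0.00 to 0.25 between mGC1_GFAP and either. All 9 same-numbered pairs thus lay above 0, while the 18 pairs of unlike number ran at -0.19 to 0.13, most of them below 0. The highest unlike pair (0.134, mGC1_GFAP replicate 1 with mGC3_CNP replicate 3) exceeded the lowest same-numbered value between mGC2_NES and mGC3_CNP (0.132). Same-numbered cultures were the more alike, but the ranges overlapped, so whether the numbers pair cultures cannot be told from these values. The main fit did not use the numbers.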

Additional observations from a re-analysis of the deposited data

Results flagged for a closer look

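Pdgfc was the member whose difference between promoter lines passed a test, 0.64 for mGC1_GFAP minus mGC2_NES. Set against the NSC culture of the same mouse line, all 3 G/tv-a tumour cultures lay higher, by 0.28 on average, and all 3 N/tv-a tumour cultures lower, at -0.42. The difference between these 2 within-line values was not tested as such.

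Pdgfa moved in opposite directions within lines. All 3 G/tv-a tumour cultures lay above their NSC culture, by 0.53 on average, while all N/tv-a and all C/tv-a tumour cultures lay below theirs, at -0.96 and -0.27. The difference was not tested, as each line has 1 NSC culture. The 3 NSC values spanned 1.30. The G/tv-a value rests on the NSC culture that had both Xist and Y-linked signal and the lowest Pdgfa value of the 12 arrays, 10.06, and the G/tv-a values of Pdgfc and Pdgfrb rest on the same culture.

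Pdgfrb did the same at the level of genes taken as absent. Tumour cultures lay above their NSC culture by 0.16 in the G/tv-a line and 0.20 in the N/tv-a line, and below it in the C/tv-a line, at -0.22. This difference was not tested either. For Pdgfa, Pdgfc and Pdgfrb alike, the share of all probe sets with such opposite directions within lines was not counted.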

How the results depend on the processing

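Of 15 called member differences, 245 values under the alternatives gave 227 on the same side of the threshold, 18 no longer past it and 0 in the other direction. The 18 were all of 2 results. Pdgfc in mGC1_GFAP against NSC missed the threshold without mGC1_GFAP replicate 1 or 3, without each NSC culture (0.21 to 0.31 over all arrays left out) and with the trended prior (adjusted p = 0.0518). Pdgfd in mGC1_GFAP against NSC missed it without mGC1_GFAP replicate 2 or 3, any mGC2_NES culture, mGC3_CNP replicate 3 or any NSC culture (0.68 to 1.12), with median centring (adjusted p = 0.0502), with the trended prior (0.0639) and over all probe sets (0.0529). For these results the cause was not tested. The members called between tumour groups numbered 1, and 1 to 2 when arrays were left out, 2 without mGC3_CNP replicate 1. With the replicate block 1 was called, Pdgfc (0.64, adjusted p = 0.00787), and the block changed no call of a member. It gave 1436, 74 and 121 probe sets called, against 1336, 106 and 100, for mGC1_GFAP against mGC2_NES, mGC1_GFAP against mGC3_CNP and mGC2_NES against mGC3_CNP. Leaving out arrays moved these counts to 534 to 1619, 24 to 106 and 42 to 133. All probe sets gave 165 and 164 for the last 2, and the 12-array fit 65 for mGC1_GFAP against mGC3_CNP.

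Of 27 member differences that were not called, 421 values under the alternatives gave 400 of the same sign and not past the threshold. Another 17 were in the other direction and 4 were past the threshold. Some of these differences changed sign when single arrays were left out. Against NSC, Pdgfa ran between -0.57 and 0.078 (tumour), -0.48 and 0.17 (mGC1_GFAP) and -0.56 and 0.093 (mGC3_CNP). Pdgfa passed without the G/tv-a NSC culture, also in mGC2_NES (-0.68) and mGC3_CNP. Pdgfrb ran between -0.021 and 0.14 (tumour), -0.043 and 0.12 (mGC1_GFAP) and -0.11 and 0.049 (mGC3_CNP), and Pdgfc in mGC3_CNP between -0.062 and 0.086, with -0.030 after median centring. Between tumour groups, Pdgfra for mGC1_GFAP against mGC2_NES ran between -0.036 and 0.013, with 0.0049 after median centring, Pdgfa for mGC1_GFAP against mGC3_CNP between -0.052 and 0.14, and for mGC2_NES against mGC3_CNP Pdgfb between -0.053 and 0.14 and Pdgfd between -0.51 and 0.23. List counts moved by over 1.5 times for the higher microglia, higher pericyte and higher relay calls, each to 0 or 1, and in the filtered fit for the lower endothelial (0) and microglia (1) calls.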
